A study of Mus musculus with 23 samples.

Results

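The cytosolic ribosomal protein genes of mouse F9 cells were followed through 48 h of retinoic acid treatment. Members were all rows of the gene count tables whose symbol is Rpl or Rps followed by a number and at most a short suffix, together with Rpsa, Rplp0, Rplp1 and Rplp2, and without pseudogene, predicted-gene or Rps6k symbols. The rule found 86 of 36814 genes, and it used no measured value. Of these, 41 encode canonical large-subunit proteins, 31 small-subunit proteins and 3 the stalk proteins Rplp0, Rplp1 and Rplp2, while 7 are named paralogues (Rpl3l, Rpl7l1, Rpl10l, Rpl22l1, Rpl39l, Rps4l and Rps27l) and 4 are other copies (Rpl6l, Rps12l1, Rps3a2 and Rps3a3). In RefSeq, 81 of the 86 are protein coding, those 4 copies are pseudogenes and 1, Rps4l, is a transcribed pseudogene. Enough counts for a test were reached by 81 members. The 5 that were not tested were Rpl3l and Rpl39l, paralogues known from muscle and from testis, and Rpl6l, Rps12l1 and Rps3a2, which held between 16 and 41 counts each over all libraries.

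F9 is an established mouse embryonal carcinoma line of 1 genotype that leaves its undifferentiated state when it is given all-trans retinoic acid (RA), the ligand of the nuclear receptors RAR and RXR. Poly(A) RNA was sequenced in 14 libraries. They were F9 cells in 1e-07 M RA, given from a DMSO stock, for 6, 12, 24 or 48 h (2 libraries a time), F9 cells in 0.001% DMSO for 24 h and 48 h (1 library each, unreplicated), and untreated F9 cells at 0 h (4 libraries). Whether replicates came from separate cultures is not in the labels, so the p-values speak only of how these libraries vary, and that variation may be technical.

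A ribosome carries a single copy of nearly every ribosomal protein, so these genes are usually expressed together and in proportion to growth. Their mRNAs begin with a terminal oligopyrimidine (TOP) tract, a C followed by a run of C and T, through which mTORC1 and the RNA-binding protein Larp1 set how much of the mRNA is translated and how stable it is. Myc, RNA polymerase I and the ribosome assembly factors are other well-known parts of the same growth programme. Mouse ribosomal protein genes also have many processed pseudogenes, intronless copies of the mRNA elsewhere in the genome, which makes short reads from the parent gene hard to place.

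RefSeq promoter windows (build GRCm38.p6) were matched to 61 of the 86 members, and 13 of the 61 (21.3%) had an annotated start at a C that opens a run of at least 5 pyrimidines, against 3.01% of 27025 genes. Windows of 50 bases, 30 before the annotated start and 20 from it, are shown 5′ to 3′ on the gene's strand because they carry the TOP tract that the family is known for, in genes whose levels are described below. Capitals mark the unbroken pyrimidine run from the annotated start.
Rps6, chr4:86857348-86857397, minus strand: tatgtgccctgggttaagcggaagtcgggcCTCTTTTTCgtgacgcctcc
Rps10, chr17:27635225-27635274, minus strand: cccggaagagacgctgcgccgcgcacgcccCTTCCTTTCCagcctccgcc
Rpl35, chr2:39005112-39005161, minus strand: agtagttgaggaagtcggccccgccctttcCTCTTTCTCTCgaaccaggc
Rplp2, chr7:141447621-141447670, plus strand: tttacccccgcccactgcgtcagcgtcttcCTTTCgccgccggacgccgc
Rpl14, chr9:120571487-120571536, plus strand: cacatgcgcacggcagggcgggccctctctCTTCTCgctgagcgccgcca
Rpl15, chr14:18270967-18271016, minus strand: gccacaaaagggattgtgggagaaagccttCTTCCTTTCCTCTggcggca
Rps27, chr3:90213629-90213678, minus strand: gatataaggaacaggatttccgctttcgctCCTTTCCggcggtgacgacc
The other 48 matched members have no such run from a C at an annotated start, and Rpl37 and Rpl27, whose levels are given below, are among them. In both, pyrimidine runs lie elsewhere in the window, and an annotated start need not be the base at which transcription begins.
Rpl37, chr15:5116583-5116632, plus strand: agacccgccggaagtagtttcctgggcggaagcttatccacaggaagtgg
Rpl27, chr11:101442215-101442264, plus strand: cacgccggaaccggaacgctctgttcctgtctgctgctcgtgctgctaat

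In windows of 300 bases around the start, read on both strands, the ETS-family letters CCGGAAG were in 25 of 61 members (41.0%), against 9.93% of all genes. The YY1 letters AAGATGG were in 10 (16.4%), against 7.28%, and the E-box CACGTG in 6 (9.84%), against 8.09%. The RAR/RXR direct repeats, a pair of AGGTCA with 5 or 2 bases between, were in 0 of the 61, against 0.0111% and 0.0074% of all genes. CCGGAAG and AAGATGG can share the letters AAG, and such overlaps were not counted. These matches describe letters in a window and not binding.

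Library depth was 7078941 to 10948932 gene counts. The libraries fell into 2 sets by the share of reads that the authors' counting gave to no feature, 52.5 to 53.8% in set 2 and 57.3 to 59.4% in set 1. Set 1 held the libraries numbered 1 of every RA time and of 0 h and both DMSO libraries, and set 2 the rest, so RA times and sets are crossed but DMSO exists in set 1 only. The labels name single-end reads of 72 bp and 50 bp without saying which library had which. Records that aligned to more than 1 place, which the authors' tables keep out of gene rows, numbered 1.59 to 2.19 per gene count in set 2 and 1.21 to 1.49 in set 1. Summed over 8 markers of undifferentiated F9 cells, levels were 1453 to 2269 CPM (counts scaled to a common library total) at RA 48 h, against 4551 to 5609 CPM at 0 h. Summed over 9 extraembryonic endoderm markers they were 4461 to 5918 CPM at RA 48 h, against 210 to 384 CPM at 0 h. Blood markers summed to at most 0.902 CPM and muscle markers to at most 1.58 CPM in any library, while male germ cell markers summed to between 14.4 and 56.6 CPM, with 1 of 4 at 0 throughout. At 48 h, 8 of 8 undifferentiated markers were called lower and 9 of 9 endoderm markers higher, and their part in the ribosomal protein results was not tested. None of these 17 markers was at 0 in all libraries. In bulk RNA, fewer cells of a type and less RNA per cell cannot be told apart. The library 0 h replicate 3 stood apart: its level was above both other set 2 libraries at 0 h for 65 of 81 members, against 36.1% of all genes tested. Over all 81 members, its median log2 difference from the mean of 0 h replicates 2 and 4 was 0.36. In the library RA 24 h replicate 1 the members' summed share was 2.09% of gene counts, against 1.57% in RA 24 h replicate 2.

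Together the ribosomal protein genes took their smallest shares of the counts after 48 h of RA. Their summed share was 2.09, 1.98, 2.53 and 2.03% of gene counts in the untreated 0 h libraries, 2.01 and 1.90% at RA 6 h, 1.81 and 1.76% at RA 12 h, 2.09 and 1.57% at RA 24 h and 1.41 and 1.39% at RA 48 h. The DMSO libraries held 2.01% at 24 h and 1.99% at 48 h. Both RA 48 h libraries lay below every 0 h and DMSO library, and the RA 24 h libraries lay on either side of the DMSO one. A library's 95% Wilson interval reached at most 0.0105 percentage points to either side, which covers counting error only, as reads without molecular identifiers are not independent molecules.

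**Figure D1:**
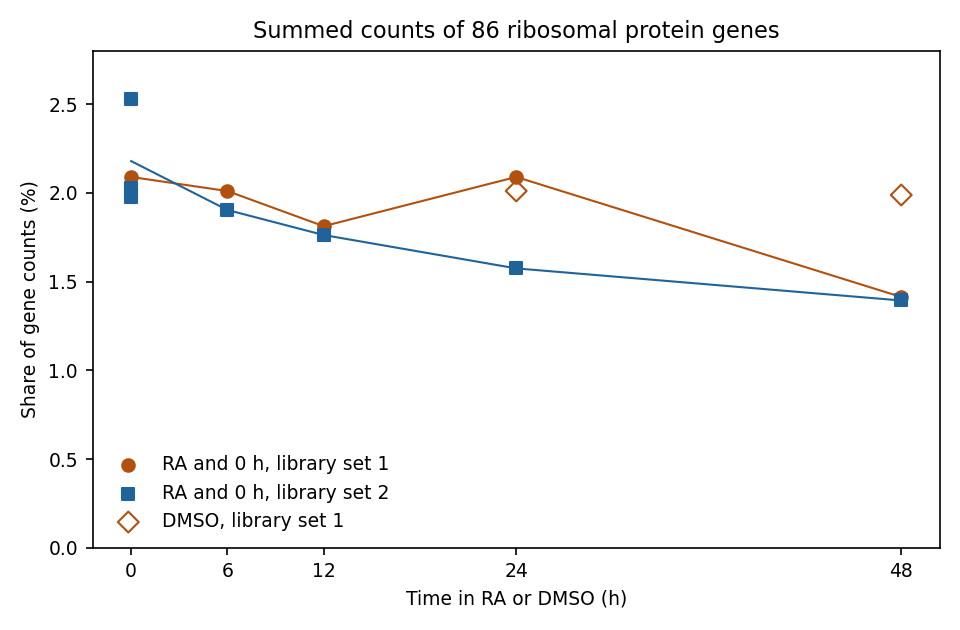
Summed counts of the 86 ribosomal protein genes as a percentage of all gene counts (y axis) by hours in RA or DMSO (x axis), 1 symbol per library, lines through the mean of each library set at 0 h and the RA times. Both RA 48 h libraries sit at 1.41% and 1.39%, below the DMSO 48 h library at 1.99% and all 0 h libraries.

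Against untreated cells, more members were called lower at each later RA time, and by 48 h most of the family was lower. Calls are at a Benjamini-Hochberg adjusted p under 0.05 from edgeR's quasi-likelihood test on all 16155 genes with enough counts, with a term for the library set. Members called lower were 0 of 81 at RA 6 h, 8 at 12 h, 29 at 24 h and 68 at 48 h, where the shares of all genes called lower were 1.51%, 5.31%, 13.5% and 22.9%. No member was called higher at any RA time by edgeR or by DESeq2, and 0 had an unadjusted p under 0.05 in that direction, where 4.1%, 7.38%, 15.5% and 25.8% of all genes were called higher. At 6 h, 5 members had an unadjusted p under 0.05 and DESeq2 called 0. The members' median log2 fold change was -0.17 at 6 h, -0.35 at 12 h, -0.47 at 24 h and -0.80 at 48 h, while the median of all genes tested lay between -0.01 and 0.02. Without the set term the members called lower were 0, 0, 6 and 31 (2, 6, 19 and 49 at an unadjusted p under 0.05), against 0.192%, 0.594%, 4.26% and 12% of all genes, with 0 members called higher against 1.47%, 2.15%, 8.08% and 17.5%, and the medians were -0.15, -0.34, -0.44 and -0.81. Leaving out RA 24 h replicate 2 left 9 calls at 24 h, and leaving out RA 48 h replicate 2 left 41 at 48 h. With the replicate number as a block, 2 were called at 12 h. That block set libraries numbered 2 against all others. It therefore put 0 h replicates 3 and 4, which are in set 2, together with the libraries numbered 1, which are in set 1. The median was -0.07 at 6 h and -0.22 at 12 h with that block, -0.07 at 6 h without 0 h replicate 3, and -0.30 at 24 h without RA 24 h replicate 2.

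Within each library set taken alone, with no test, the 48 h medians lay close together. In set 1, RA 48 h replicate 1 was below 0 h replicate 1 for 78 of 81 members with a median log2 difference of -0.79. In set 2, RA 48 h replicate 2 was below the mean of the 3 untreated libraries for 79 of 81, with a median of -0.76. At 24 h the sets differed more: 61 of 81 and a median of -0.29 in set 1, 76 of 81 and -0.61 in set 2. Both RA 48 h libraries lay below all 4 untreated libraries for 55 of 81 members, against 22.7% of all genes tested.

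**Figure D2:**
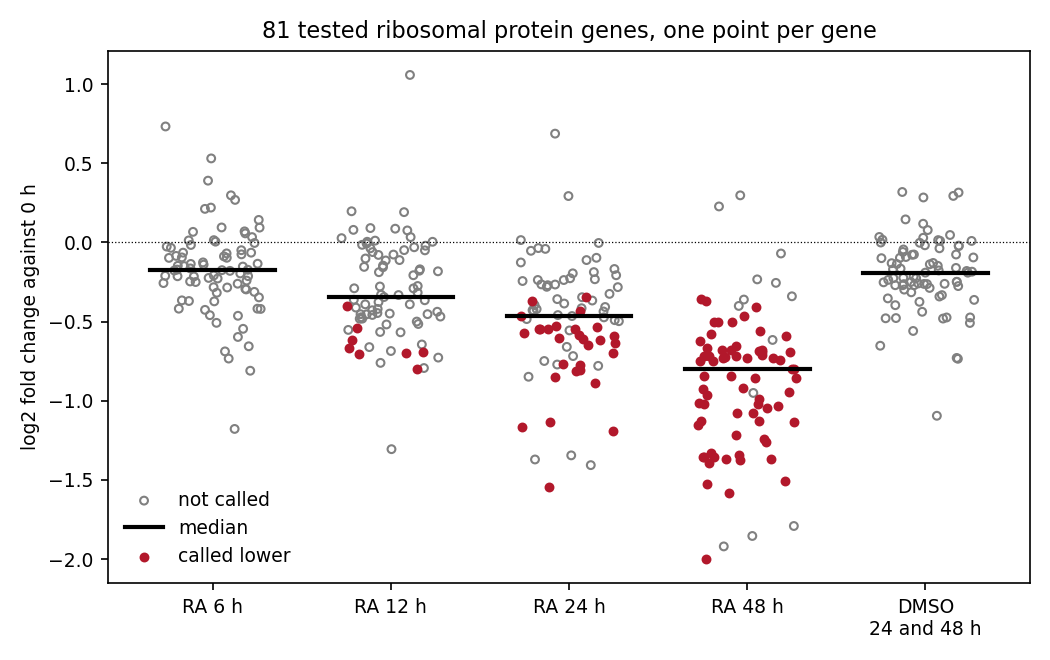
log2 fold change against untreated 0 h (y axis) for the 81 tested ribosomal protein genes, 1 point per gene, at each RA time and for both DMSO libraries together (x axis), with genes called lower in red and the median as a bar. The median moves down to -0.80 at RA 48 h, where 68 genes are called lower, and lies at -0.19 in DMSO with 0 called.

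Among the large-subunit genes, 35 of 41 were called lower at RA 48 h (median log2 fold change -0.74) and 17 of 41 at 24 h (-0.50), against 22.9% and 13.5% of all genes. The deepest called decrease was in Rpl37, a small zinc-binding protein of the large subunit. Rpl37 was at 37.9, 13.8, 17.7 and 17.03 CPM in the untreated 0 h libraries, 22.9 and 9.80 at RA 6 h, 16.1 and 11.7 at RA 12 h, 15.3 and 7.61 at RA 24 h and 9.95 and 3.51 at RA 48 h, with 30.4 in the DMSO 24 h library and 18.9 in the DMSO 48 h library. Its levels were lower in every RA library than in the 0 h libraries of the same set, and set 1 ran above set 2. The log2 fold change at 48 h was -1.9997 ± 0.24 (SE; edgeR adjusted p = 1.74e-05), and the adjusted p was 0.0536 without the set term. A related row, Rpl37rt, held 51029 counts over all libraries, against 2019 for Rpl37, so the level of Rpl37 is uncertain. Rpl37rt was called lower at 48 h by -0.90 ± 0.15 (SE), with an edgeR adjusted p of 0.000192. Rpl27, another large-subunit protein, was at 94.4, 62.4, 100.2 and 62.1 CPM in the untreated 0 h libraries, 78.5 and 57.1 at RA 6 h, 65.1 and 43.6 at RA 12 h, 68.7 and 36.6 at RA 24 h and 31.5 and 26.3 at RA 48 h, with 97.2 in the DMSO 24 h library and 94.9 in the DMSO 48 h library. Both RA 48 h libraries were below all others, and DMSO stayed in the range of 0 h. Its log2 fold change at 48 h was -1.58 ± 0.21 (SE; edgeR adjusted p = 4.30e-05).

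Rpl3, a core protein beside the peptidyl transferase centre, was at 20.6, 17.5, 38.4 and 19.7 CPM in the untreated 0 h libraries, 16.1 and 17.5 at RA 6 h, 12.9 and 15.99 at RA 12 h, 5.22 and 10.4 at RA 24 h and 7.18 and 8.43 at RA 48 h, with 16.8 in the DMSO 24 h library and 15.6 in the DMSO 48 h library. All RA 24 h and 48 h libraries lay below the 0 h and DMSO libraries. The log2 fold change was -1.55 ± 0.32 at 24 h (SE; edgeR adjusted p = 0.00259) and -1.53 ± 0.32 at 48 h (0.00137). When counts of Rpl3 and its pseudogene rows were added together, an alternative chosen after seeing the data, the 48 h value was -0.24 with an edgeR adjusted p of 0.271. Rpl36, also of the large subunit, was at 16.7 and 13.3 CPM in the RA 48 h libraries, against 53.8, 26.7, 44.8 and 27.3 CPM at 0 h, and the groups did not overlap. Rpl39, a short protein of the exit tunnel wall, was at 7.90 and 15.4 CPM in the RA 48 h libraries, against 36.4, 20.1, 43.7 and 24.1 CPM at 0 h, also without overlap. Their log2 fold changes were -1.51 ± 0.23 and -1.39 ± 0.32 (SE), with edgeR adjusted p of 0.000134 and 0.00318.

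Rpl11 and Rpl5 bind the 5S RNA and, outside the ribosome, the p53 ligase Mdm2. Rpl11 was at 19.5 and 15.6 CPM in the RA 48 h libraries, against 36.1, 33.2, 79.5 and 31.6 CPM at 0 h, with 0 h replicate 3 far above the other untreated libraries. It was called lower at 24 h (-1.13 ± 0.36, SE) and 48 h (-1.37 ± 0.37), with edgeR adjusted p of 0.0363 and 0.00933. The 24 h call was lost without the set term (0.0739), with only the groups compared (0.0984), with no count filter (0.116) and without RA 24 h replicate 1 (0.131) or 2 (0.265). The 48 h call was lost without RA 48 h replicate 2 (0.131) and in set 2 alone (0.107). Rpl5 was at 35.8 and 49.5 CPM in the RA 48 h libraries, against 40.9, 62.2, 56.7 and 83.2 CPM at 0 h, so the groups overlapped, and it was not called (-0.36 ± 0.17, SE; edgeR adjusted p = 0.099). Without 0 h replicate 3 and RA 24 h replicate 1, a choice made after seeing the data, Rpl5 was -0.44 at 48 h and called lower. With all libraries, 2 of the 4 members of the Mdm2-binding list (Rpl5, Rpl11, Rpl23 and Rps7) were called lower at 48 h, against 22.9% of all genes.

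Rpl4, whose protein lines the exit tunnel, was at 1052 and 1492 CPM in the RA 48 h libraries, against 1787, 2231, 2481 and 2373 CPM at 0 h, a log2 fold change of -0.72 ± 0.11 (SE; edgeR adjusted p = 8.84e-05). Rpl8, the member with the most counts, was at 1613 and 1367 CPM in the RA 48 h libraries, against 3249, 2433, 3332 and 2416 CPM at 0 h, a log2 fold change of -1.04 ± 0.16 (SE; edgeR adjusted p = 0.00012). For both genes the RA 48 h libraries lay below all untreated ones. Rpl10a was called lower by -0.73, Rpl38, known for a role in patterning in the mouse, by -0.69, Rpl7 by -0.56 and Rpl22 by -0.37, all log2 fold changes at 48 h. The calls of Rpl7 and Rpl22 were lost without the set term, and with the replicate block they were -0.31 (0.076) and -0.24 (0.189), with edgeR adjusted p in brackets. Without RA 48 h replicate 2, Rpl7 was -0.21 (0.546), Rpl38 -0.44 (0.169) and Rpl22 -0.29 (0.34), none of them called. Rpl10, which completes the subunit next to the peptidyl transferase centre, was at 33.96 and 38.8 CPM in the RA 48 h libraries, against 46.2, 42.8, 40.4 and 45.5 CPM at 0 h, below in both, but with -0.23 ± 0.16 (SE; edgeR adjusted p = 0.242) it was not called. Of the 6 large-subunit genes not called at 48 h, 5 (Rpl5, Rpl9, Rpl10, Rpl23 and Rpl31) had negative values, and Rpl17, at 0.30 ± 0.63 (SE; 0.728), had a positive one. Rpl9, Rpl17, Rpl23 and Rpl31 are named here after their values were seen.

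**Figure D3:**
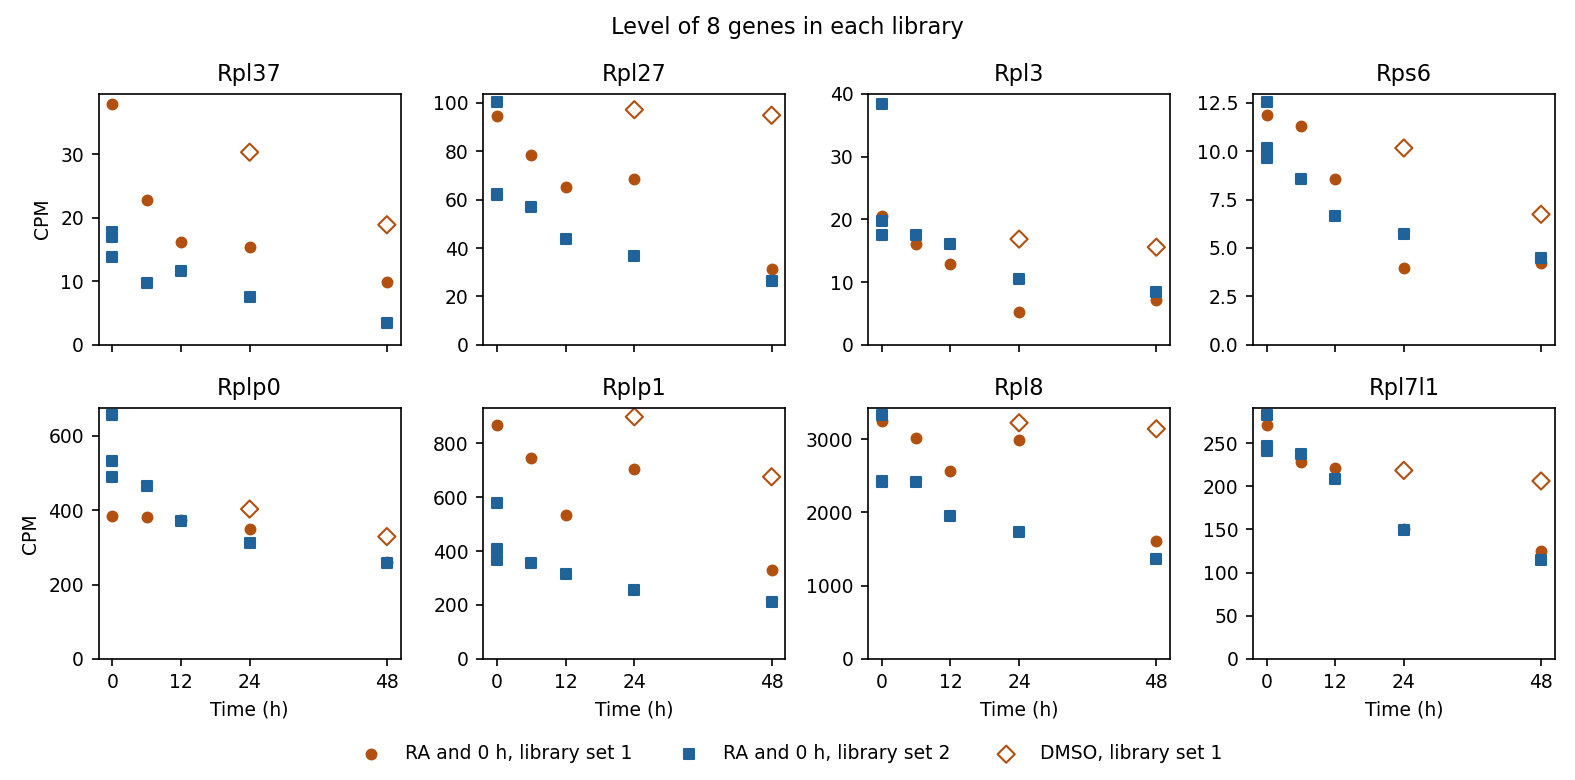
CPM (y axis) by hours (x axis) in each of the 14 libraries for 8 named genes, with RA and 0 h libraries filled by library set and DMSO libraries open. In each of the 8 panels both RA 48 h libraries lie below the DMSO 48 h library.

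Among the small-subunit genes, 27 of 31 were called lower at RA 48 h (median log2 fold change -0.86) and 8 of 31 at 24 h (-0.43), against 22.9% and 13.5% of all genes. Rps6, the classical substrate of S6 kinase, was at 11.9, 10.2, 12.5 and 9.64 CPM in the untreated 0 h libraries, 11.3 and 8.56 at RA 6 h, 8.55 and 6.64 at RA 12 h, 3.94 and 5.73 at RA 24 h and 4.21 and 4.51 at RA 48 h, with 10.2 in the DMSO 24 h library and 6.74 in the DMSO 48 h library. The RA 24 h and 48 h libraries lay below all others. Its log2 fold change was -1.19 ± 0.27 at 24 h (SE; edgeR adjusted p = 0.00449) and -1.35 ± 0.27 at 48 h (0.000996), and the 24 h call was lost without RA 24 h replicate 1 (0.06). With its pseudogene rows added, the 48 h value was -0.45 with an edgeR adjusted p of 0.199, and its 4 copy rows held 88.8% of the family's counts.

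Rps23, a decoding-site protein, was at 11.1, 10.1, 10.2 and 10.9 CPM in the untreated 0 h libraries, 7.20 and 10.1 at RA 6 h, 7.10 and 7.67 at RA 12 h, 9.05 and 8.55 at RA 24 h and 3.28 and 4.67 at RA 48 h, with 10.7 in the DMSO 24 h library and 9.33 in the DMSO 48 h library, and all other libraries lay above both RA 48 h ones. It was not called at 24 h (-0.23 ± 0.23, SE; edgeR adjusted p = 0.499) and was called lower at 48 h (-1.37 ± 0.25; 0.000477). Rps19, the gene most often mutated in human Diamond-Blackfan anaemia, was at 94.9 and 116 CPM in the RA 48 h libraries, against 161, 137, 288 and 139 CPM at 0 h. The groups did not overlap, but the DMSO 48 h library, at 91.8 CPM, was as low as the RA ones. Rps19 was called lower against 0 h at 48 h (-0.73 ± 0.27, SE; edgeR adjusted p = 0.0444), a call that was lost without the set term (0.0787), with only the groups compared (0.113), and without any 1 of 0 h replicate 1 (0.0928), RA 24 h replicate 1 (0.0822) or 2 (0.0861) and RA 48 h replicate 1 (0.121) or 2 (0.201). Of the 13 members on a list of genes mutated in that disease, 11 were called lower at 48 h with a median of -0.73, and 3 at 24 h. Of all 81 members tested, 68 and 29 were called lower at these times, and of all genes 22.9% and 13.5%.

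Rps27a, which is made as a fusion with ubiquitin, was at 25.1, 50.8, 44.6 and 46.1 CPM in the untreated 0 h libraries, 20.3 and 45.7 at RA 6 h, 18.9 and 41.4 at RA 12 h, 17.04 and 30.9 at RA 24 h and 13.7 and 23.5 at RA 48 h, with 32.3 in the DMSO 24 h library and 21.6 in the DMSO 48 h library. Within each set the RA 48 h library was the lowest. Its log2 fold change at 48 h was -0.92 ± 0.16 (SE; edgeR adjusted p = 0.000267), and -0.44 (0.105) with its pseudogene row added. Without the set term the adjusted p was 0.0884. Rps4x, the X-linked form of a small-subunit protein, was at 414 and 344 CPM in the RA 48 h libraries, against 486, 462, 526 and 489 CPM at 0 h, a small decrease of -0.41 ± 0.11 on the log2 scale (SE; edgeR adjusted p = 0.00817), with an adjusted p of 0.0697 without the set term. Without RA 48 h replicate 2 it was -0.25 (edgeR adjusted p = 0.254). Rpsa, the laminin-receptor protein of the small subunit, was at 36.1 and 6.01 CPM in the RA 48 h libraries, against 73.8, 9.22, 21.4 and 8.56 CPM at 0 h, values that follow the library set. With the set term it was called lower (-1.15 ± 0.33, SE; edgeR adjusted p = 0.0112), and without it the adjusted p was 0.845. The Rpsa call was also lost without RA 48 h replicate 1 (0.0862) or 2 (0.0648).

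The 4 small-subunit genes not called at 48 h were Rps2, Rps25, Rps27 and Rps28, of which Rps2 and Rps28 are named after their values were seen. Rps2 was at 188 and 59.1 CPM in the RA 48 h libraries, against 383, 178, 566 and 73.4 CPM at 0 h, and Rps25, known for internal initiation on viral RNAs, at 60.4 and 17.03 CPM in the RA 48 h libraries, against 93.4, 20.03, 177 and 18.9 CPM at 0 h. Their fitted log2 fold changes were -1.85 ± 0.89 and -1.79 ± 1.14 (SE), with edgeR adjusted p of 0.132 and 0.241, and in both genes 0 h replicate 3 was the highest library of all. Without 0 h replicate 3 and RA 24 h replicate 1, a choice made after seeing the data, Rps25 was called lower, but by only -0.40 on the log2 scale. Rps27 had at most 2.34 CPM in any library and a value near zero (-0.07 ± 0.60, SE), whose sign turned in 8 alternatives.

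The stalk proteins, which recruit the elongation factors to the ribosome, were all called lower at 24 h and at 48 h. Rplp0 was at 383, 490.4, 656 and 532 CPM in the untreated 0 h libraries, 382 and 465 at RA 6 h, 373 and 371 at RA 12 h, 350.3 and 311 at RA 24 h and 261 and 257 at RA 48 h, with 403 in the DMSO 24 h library and 329 in the DMSO 48 h library. Both RA 48 h libraries were below all 12 others. Rplp1 was at 331 and 211 CPM in the RA 48 h libraries, against 869, 366, 577 and 406 CPM at 0 h, and Rplp2 at 69.3 and 140.5 CPM in the RA 48 h libraries, against 164, 234, 316 and 227 CPM at 0 h. Rplp1 read higher in set 1 and Rplp2 in set 2, and in each set the RA 48 h library was below the untreated ones. At 48 h their log2 fold changes were -0.94 ± 0.17, -1.24 ± 0.20 and -1.04 ± 0.16 (SE), with edgeR adjusted p of 0.000439, 0.000172 and 0.000153. For Rplp1 the adjusted p was 0.153 without the set term.

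Of the 5 paralogues tested, 3 were called lower at RA 48 h, as were 5 of 7 parent genes, against 22.9% of all genes. Rpl7l1, a relative of Rpl7 that acts in the assembly of the large subunit, was at 271, 247, 283 and 241 CPM in the untreated 0 h libraries, 228 and 237 at RA 6 h, 221 and 209 at RA 12 h, 151 and 149 at RA 24 h and 125 and 115 at RA 48 h, with 218 in the DMSO 24 h library and 206 in the DMSO 48 h library. RA 24 h and 48 h libraries lay below all others, and the libraries of a group lay close together. It was called lower at 24 h (-0.81 ± 0.11, SE; edgeR adjusted p = 0.00017) and 48 h (-1.13 ± 0.12; 4.25e-06), while its parent Rpl7 was -0.46 ± 0.19 (0.0824) and -0.56 ± 0.19 (0.0261). The difference between paralogue and parent was not tested. Rpl22l1, the paralogue that Rpl22 represses in the mouse, was at 10.4, 54.1, 67.6 and 55.5 CPM in the untreated 0 h libraries, 23.6 and 58.6 at RA 6 h, 12.04 and 77.4 at RA 12 h, 19.4 and 62.9 at RA 24 h and 20.7 and 53.3 at RA 48 h, with 18.2 in the DMSO 24 h library and 18.1 in the DMSO 48 h library. Its level followed the library set, and at 0.23 ± 0.27 (SE; edgeR adjusted p = 0.509) it was not called, with a negative value of -0.34 without the set term. Rps27l was called lower at 48 h (-0.65 ± 0.15, SE; 0.00292) and so was Rps4l (-0.69 ± 0.19; 0.00754), and both calls were lost without the set term (0.0528 and 0.0517) and without RA 48 h replicate 2 (0.157 and 0.218). Rpl10l, known from testis, was at 0 and 0.751 CPM in the RA 48 h libraries, against 0, 0.745, 3.37 and 3.21 CPM at 0 h, too low and too scattered for a call (-1.92 ± 1.09, SE; 0.166). The only one of the 4 copies tested, Rps3a3, was at -0.34 ± 0.14 (SE; 0.0525) and not called.

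**Figure D4:**
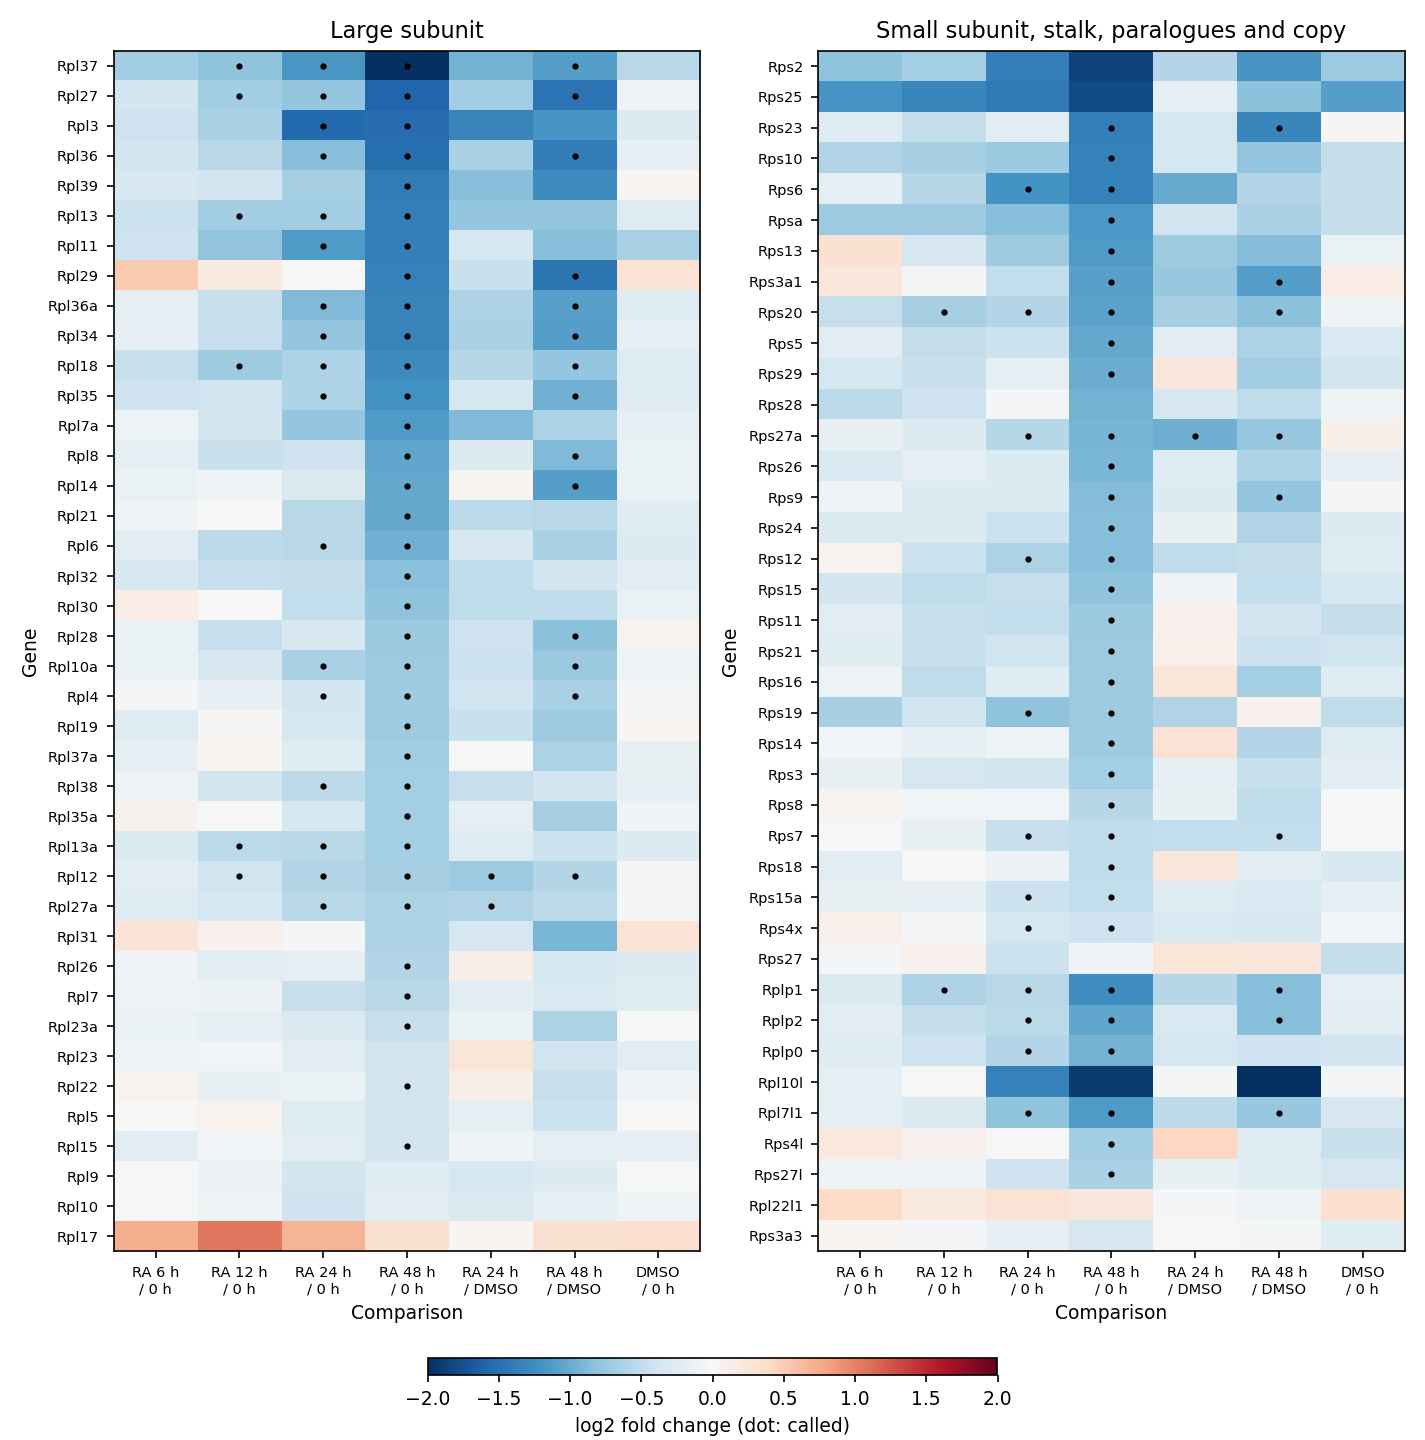
log2 fold changes of 79 tested genes (rows, by group) in 7 comparisons (columns), blue for lower and red for higher, colours clipped at 2 either way, with a dot where the gene was called. Dots fill most of the RA 48 h column, and the DMSO column has 0.

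Between 24 h and 48 h of RA, a further decrease was called for 7 of 81 members, against 4.62% of all genes called lower, and 0 members were called higher by edgeR or DESeq2 or had an unadjusted p under 0.05 upward (6.4% of all genes were called higher). Rpl29, a large-subunit protein, was at 2.87 and 5.09 CPM at RA 48 h, against 5.22 and 17.2 CPM at RA 24 h and 6.92, 11.2, 17.4 and 16.2 CPM at 0 h. Its levels were higher in set 2, and within each set the 48 h library was the lower. The log2 fold change was -1.37 ± 0.32 (SE; edgeR adjusted p = 0.0144). Rps23 (-1.14 ± 0.27), Rpl27 (-0.81 ± 0.23), Rps4l (-0.69 ± 0.21), Rps26 (-0.64 ± 0.18), Rpl8 (-0.63 ± 0.17) and Rps9 (-0.59 ± 0.18) were the other log2 fold changes called (SE), of which Rps26 and Rps9 are named after their values were seen. Without the set term 0 members were called (8 at an unadjusted p under 0.05, 0.217% of all genes called lower and 0.489% higher). With the replicate block the count was 11. It was 1 without RA 24 h replicate 1 and 19 without RA 24 h replicate 2.

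At 12 h of RA the called members were Rpl37 (-0.80 ± 0.22), Rpl18 (-0.71 ± 0.18), Rpl27 (-0.70 ± 0.20), Rpl13 (-0.69 ± 0.20), Rps20 (-0.66 ± 0.16), Rplp1 (-0.61 ± 0.19), Rpl13a (-0.54 ± 0.17) and Rpl12 (-0.40 ± 0.13), log2 fold changes with SE. Their edgeR adjusted p lay between 0.0149 and 0.04999. Rps20, a small-subunit head protein, was at 120.3 and 198 CPM at RA 12 h, against 203, 253, 352 and 319 CPM at 0 h, and the groups did not overlap. Rpl18, of the large subunit, was at 78.9 and 96.5 CPM, against 149, 121, 185 and 134 CPM, again without overlap. None of the 8 was called without the set term, and without RA 12 h replicate 1 the count was 0. Rpl13a and Rpl12 are named after their values were seen.

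Comparison with DMSO at the same time holds culture time constant, and there the share of members called lower stood above that of all genes at 48 h but not at 24 h. The RA came from a DMSO stock, but the sample annotation used here does not give an equal DMSO percentage for RA and DMSO libraries. At 24 h, 3 of 81 members were called lower, against 4.61% of all genes, and the members' median log2 fold change was -0.33. At 48 h, 23 were called lower, against 11.5% of all genes, with a median of -0.63. In neither comparison was a member called higher by edgeR or DESeq2, and 0 reached an unadjusted p under 0.05 upward, where 5.83% and 12.6% of all genes were called higher. Without the set term the counts were 0 at 24 h (6 at an unadjusted p under 0.05) and 3 at 48 h, against 0.594% and 3.16% of all genes called lower and 1.29% and 4.8% called higher. DMSO has 1 library a time, so its spread is taken from the other groups, and without RA 48 h replicate 1, the RA library of the DMSO libraries' set, 7 were called at 48 h. Within set 1, with 1 library on each side, RA was below DMSO for 57 of 81 members at 24 h (median log2 difference -0.23) and for 76 of 81 at 48 h (-0.71).

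The 3 genes called at 24 h were Rps27a, Rpl12 and Rpl27a. Rps27a was at 17.04 and 30.9 CPM in the RA 24 h libraries, against 32.3 CPM in DMSO, and only the set 1 library, the first of the RA values, can be compared directly. Rpl12, a protein of the stalk base, was at 48.5 and 37.3 CPM in RA, against 79.1 CPM in DMSO. Rpl27a, a protein of the large subunit, was at 61.1 and 52.4 CPM in RA, against 83.8 CPM in DMSO. Their log2 fold changes were -0.98 ± 0.21, -0.72 ± 0.17 and -0.61 ± 0.18 (SE), with edgeR adjusted p of 0.0107, 0.0191 and 0.0493. For Rps27a the value was -0.28 with its pseudogene row added (0.583). The Rpl27a call was lost without the set term, with no count filter and without 0 h replicate 1, 2 or 4. It was also lost without any 1 library of RA 6 h, 12 h or 48 h. Without RA 24 h replicate 1, Rpl12 was -0.74 (edgeR adjusted p = 0.0799), and without RA 24 h replicate 2, Rpl27a was -0.44 (0.0951).

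At 48 h the deepest decreases against DMSO were in Rpl27 (-1.47 ± 0.28), Rpl29 (-1.47 ± 0.41), Rpl36 (-1.38 ± 0.31), Rps23 (-1.30 ± 0.34), Rps3a1 (-1.10 ± 0.34) and Rpl34 (-1.10 ± 0.27), log2 fold changes with SE. Their edgeR adjusted p lay between 0.00213 and 0.0295. Rpl27 was at 31.5 and 26.3 CPM in RA, against 94.9 CPM in DMSO, and Rpl36 at 16.7 and 13.3 CPM, against 51.5 CPM. Rps23 was at 3.28 and 4.67 CPM in RA, against 9.33 CPM in DMSO, and Rpl34 at 11.3 and 10.3 CPM, against 28.5 CPM. Rpl29 was at 2.87 and 5.09 CPM in RA, against 6.35 CPM in DMSO, and Rps3a1 at 3.18 and 6.68 CPM, against 6.48 CPM. Only the set 1 RA library, the first of each pair, can be compared directly, and it was below the DMSO one for all 6 genes. The set 2 RA library was below the DMSO one for 5 of the 6 and above it for Rps3a1, but its position also holds the set difference. Of the 6 calls, all but that of Rpl27 were lost without the set term. Without RA 48 h replicate 1 the values, with edgeR adjusted p in brackets, were -1.13 (0.066) for Rpl36, -1.14 (0.0881) for Rps23, -1.26 (0.0629) for Rps3a1 and -0.87 (0.101) for Rpl34. Without RA 48 h replicate 2 they were -1.08 (0.127) for Rpl29 and -0.96 (0.12) for Rps3a1. With its pseudogene rows added, Rpl34 was -0.40 (edgeR adjusted p = 0.288). Rps3a1 held 1320 counts over all libraries, against 36356 for the pseudogene Rps3a3, and these 2 rows were not added together. By group, 14 of 41 large-subunit genes, 6 of 31 small-subunit genes, 2 of 3 stalk genes and 1 of 5 paralogues were called lower. The share of all genes called lower in this comparison was 11.5%. Rps19 (0.08 ± 0.39, SE; 0.91) and Rpsa (-0.65 ± 0.42; 0.285), called lower against 0 h, were not called against DMSO, and both sets of comparisons share the RA libraries. The change in the RA against DMSO difference from 24 h to 48 h was called for 0 members by edgeR or DESeq2 (2 at an unadjusted p under 0.05, both lower at 48 h), where 0.0186% of all genes were called lower and 0.0433% higher. Without the set term the count was 0 of 81 (0 at an unadjusted p under 0.05).

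DMSO alone gave no call. In the DMSO libraries together against 0 h, 0 of 81 members were called in either direction by edgeR, with the set term or without, or by DESeq2 with it. In edgeR 0% of all genes were called, and 4 members and 1263 of 16155 genes had an unadjusted p under 0.05. Among the 4, and named after their values were seen, were Rpl37 (-0.56 ± 0.24), Rps21 (-0.40 ± 0.17) and Rpl7l1 (-0.33 ± 0.12), log2 fold changes with SE. The members' median was -0.19, against -0.03 for all genes tested, and 67 of 81 were below zero. These comparisons share the 0 h libraries with those of RA.

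Several members were read at very different levels in the 2 library sets. In set 2 against set 1, 23 members were called lower and 19 higher, against 20.1% and 22% of all genes. Rpl23a, the docking site of the signal recognition particle, had 157 to 246 CPM in set 2, against 4.21 to 6.35 CPM in set 1. Within a set the levels lay closer together: in set 2 Rpl23a was at 157 CPM at RA 48 h, against 224, 246 and 204 CPM at 0 h, and in set 1 at 4.21 CPM, against 4.51 CPM. With the set term Rpl23a was called lower at 48 h (-0.46 ± 0.17, SE; edgeR adjusted p = 0.0368), and without it the adjusted p was 0.731. Rpl23a is named after its values were seen.

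**Figure D5:**
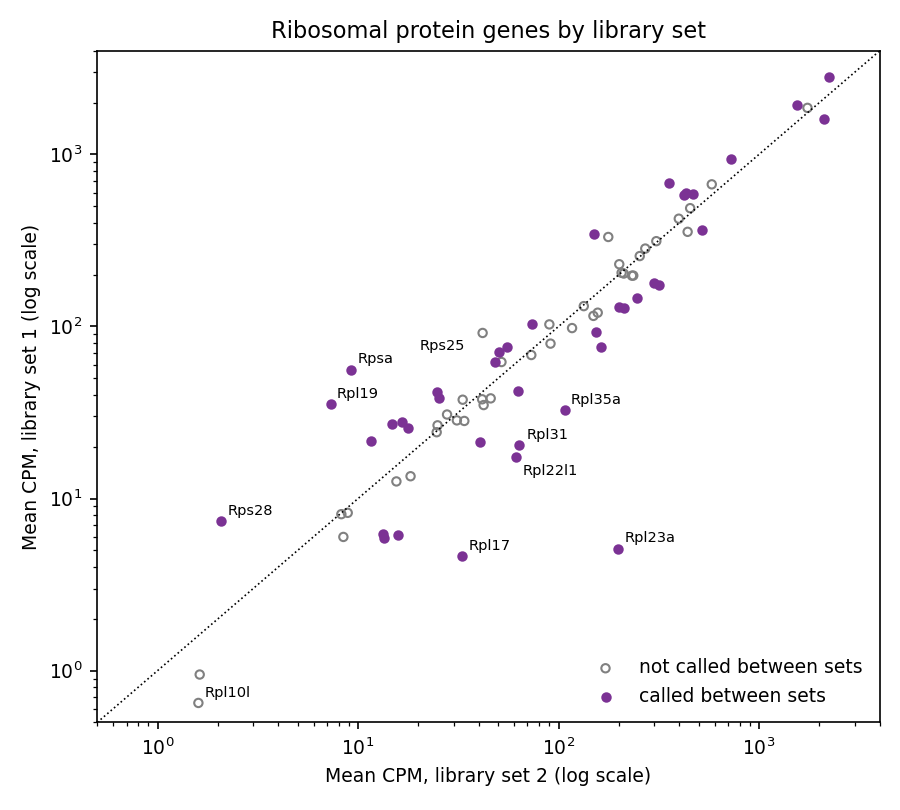
Mean CPM of 79 tested ribosomal protein genes in library set 2 (x axis, log scale) and library set 1 (y axis, log scale), filled where the gene was called between sets, with a line of equal levels. Rpl23a lies far to the right of the line at a mean of 199 CPM in set 2 and 5.11 CPM in set 1.

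Rows for processed copies of these genes also held reads. The tables hold 192 rows named as pseudogenes of ribosomal protein genes, and 56 of the 81 tested members have at least 1 such row with reads. For 14 members the rows so named held more counts than the gene itself. The extreme was Rpl3, with 2061 counts over all libraries, where its pseudogene row Rpl3-ps1 had 80627. Rpl3-ps1 was at 1025 and 283 CPM in the RA 48 h libraries, against 796, 407, 468 and 452 CPM at 0 h, and with -0.21 ± 0.17 on the log2 scale (SE; edgeR adjusted p = 0.348) it was not called. Rps16-ps2 was at 436 and 211 CPM in the RA 48 h libraries, against 992, 296, 368 and 289.8 CPM at 0 h, and was called lower by -0.87 ± 0.19 (SE; edgeR adjusted p = 0.00202), next to -0.73 ± 0.24 for Rps16 (0.021). Rpl14-ps1 was at 334 and 371 CPM in the RA 48 h libraries, against 550.3, 549, 642 and 570.1 CPM at 0 h, and was called lower by -0.71 ± 0.12 (0.000264), next to -1.02 ± 0.26 for Rpl14 (0.00593). Of the 75 pseudogene rows tested, 26 were called lower at 48 h and 0 higher (median -0.77), against 22.9% and 25.8% of all genes. These 3 rows are named after their counts were seen.

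The 56 members with a row named as a pseudogene that had reads gave 48 calls at RA 48 h and a median log2 fold change of -0.82. The 25 without gave 20 calls and -0.73. For the 14 members whose pseudogene rows held more counts than the gene, there were 13 calls and a median of -1.09. Of all genes, 22.9% were called lower at 48 h. Copies under other names were not counted, so the 25 are not free of copies. They include Rpl37 and Rps3a1, with 2019 and 1320 counts, where the related rows Rpl37rt and Rps3a3 held 51029 and 36356. With each member's pseudogene rows added to it, an alternative chosen after seeing the data, 66 members were called lower at 48 h, 26 at 24 h and 8 at 12 h. Levels of single members, above all of those whose copies hold more reads, are uncertain, since reads of near-identical copies can be split between rows or left out.

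Members whose annotated start is a C that opens a run of at least 5 pyrimidines gave 12 calls of 13 tested at RA 48 h and a median log2 fold change of -0.73, and those with another annotated start 36 of 46 and -0.85. The share of all genes called lower at 48 h was 22.9%. Of the windows printed above, Rps10 was at 11.2 and 11.5 CPM in the RA 48 h libraries, against 49.5, 16.5, 29.9 and 15.9 CPM at 0 h, a log2 fold change of -1.35 ± 0.31 (SE; edgeR adjusted p = 0.00284). Rpl35 was at 15.5 and 7.93 CPM in the RA 48 h libraries, against 35.5, 16.5, 24.1 and 15.1 CPM at 0 h, a change of -1.22 ± 0.22 (SE; 0.00041). Rpl15 was at 169 and 204 CPM in the RA 48 h libraries, against 204, 223, 311 and 254 CPM at 0 h, the smallest of the 3 changes, -0.36 ± 0.14 (SE; 0.045). Within each set the RA 48 h library was below the untreated ones for all 3, and all 3 calls were lost without the set term. The 3 were chosen for their start sequences.

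Other genes of the ribosome programme were lower too. Of 16 tested genes with a known TOP mRNA outside the family, 11 were called lower at RA 24 h and 14 at 48 h, against 13.5% and 22.9% of all genes. Of the 16, 0 were called higher, and their median log2 fold change was -0.63 at 48 h. They include Eef1d (-1.19 ± 0.17), Npm1 (-1.18 ± 0.14), Pabpc1 (-0.97 ± 0.15) and Hnrnpa1 (-0.93 ± 0.26), and smaller decreases of the elongation factors Eef1a1 (-0.41 ± 0.11) and Eef2 (-0.44 ± 0.13), with SE. Tpt1, another TOP gene, was not called (-0.43 ± 0.34, SE; edgeR adjusted p = 0.322). Npm1, a nucleolar chaperone, was at 506 and 749 CPM in the RA 48 h libraries, against 1176, 1369.5, 1945 and 1594 CPM at 0 h, and Pabpc1, the poly(A)-binding protein, at 716 and 778 CPM in the RA 48 h libraries, against 1826, 1394, 1347 and 1185 CPM at 0 h, both without overlap. Fau, a fusion of a ubiquitin-like protein with a small-subunit protein, was called lower at 48 h (-1.27 ± 0.21), and so was the polyubiquitin gene Ubb (-0.53 ± 0.15), with SE. Without RA 48 h replicate 2, Eef2 was -0.39 (edgeR adjusted p = 0.144). Fau was at 10.2 and 14.7 CPM in the RA 48 h libraries, against 22.1, 32.9, 46.9 and 31.1 CPM at 0 h, and the groups did not overlap.

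Of 12 chaperones, importins and assembly factors, 11 were called lower at 48 h and 0 higher, with a median of -0.71. They include Grwd1, whose yeast counterpart escorts Rpl3 (-1.58 ± 0.17), Bccip, whose yeast counterpart escorts Rpl23 (-0.93 ± 0.12), and the small-subunit assembly factors Ltv1 (-0.89 ± 0.12) and Nob1 (-0.86 ± 0.11). Of 10 tested genes of RNA polymerase I transcription, 8 were called lower with a median of -0.79, led by the initiation factor Rrn3 (-1.95 ± 0.14) and the subunits Polr1b (-1.17 ± 0.12), Polr1d (-0.98 ± 0.18) and Polr1e (-0.76 ± 0.18). Rrn3 was at 164 and 132 CPM in the RA 48 h libraries, against 601, 432, 576 and 528 CPM at 0 h, and at 565 and 551 CPM in DMSO at 24 h and 48 h. Of 76 tested mitochondrial ribosomal protein genes, which belong to another ribosome, 64 were called lower at 48 h with a median of -0.68. All values are log2 fold changes against 0 h with SE, and all genes together gave 22.9% called lower.

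Among 10 transcription factors known to act at ribosomal protein promoters, 5 were called lower and 1 higher at 48 h, against 22.9% and 25.8% of all genes. Myc was at 281, 132, 224 and 232 CPM in the untreated 0 h libraries, 198 and 94.6 at RA 6 h, 128 and 53.4 at RA 12 h, 53.5 and 28.4 at RA 24 h and 42.5 and 25.2 at RA 48 h, with 282 in the DMSO 24 h library and 264 in the DMSO 48 h library. It was lower in RA at 24 h (-2.68 ± 0.24, SE) and 48 h (-2.94 ± 0.25), with edgeR adjusted p of 5.75e-06 and 1.12e-06, and both DMSO libraries were well above all RA 24 h and 48 h ones. Mycn, its relative, was at 105, 230.2, 257 and 156 CPM in the untreated 0 h libraries, 26.9 and 82.3 at RA 6 h, 15.9 and 46.2 at RA 12 h, 18.1 and 45.9 at RA 24 h and 129 and 169 at RA 48 h, with 94.4 in the DMSO 24 h library and 103 in the DMSO 48 h library. Within each set it was lower from RA 6 h to RA 24 h than at 0 h, and the log2 fold change was -2.34 ± 0.27 (SE; edgeR adjusted p = 6.95e-05) at 24 h, but was not called at 48 h (0.05 ± 0.24; 0.896). E2f1 fell (-0.85 ± 0.14) and the Myc antagonist Mxi1 rose (0.77 ± 0.15) at 48 h. Of 19 genes of mTORC1 signalling and TOP translation, 6 were called lower and 3 higher, against 22.9% and 25.8% of all genes. Larp1 was lower (-1.16 ± 0.14, SE; 1.61e-05), as were the translation repressor Eif4ebp1 (-0.73 ± 0.16) and the mTORC1 subunit Rptor (-0.69 ± 0.13), while Sesn1, an inhibitor of mTORC1, rose (1.34 ± 0.15 at 24 h and 0.77 ± 0.15 at 48 h). Larp1 was at 438 and 281 CPM in the RA 48 h libraries, against 1026, 564, 732 and 519.5 CPM at 0 h, with the 0 h libraries of set 1 above those of set 2, and its call was lost without the set term, as were those of Eef1a1, Eef2, Hnrnpa1, Ubb, E2f1 and Eif4ebp1. All of these lists were chosen with earlier results of these data known.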

How the data were processed

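The mRNA libraries hold raw read counts per gene, which the authors deposited without normalization, 1 table per library. TopHat2 2.0.7, HTSeq and DESeq were used on build mm9, per the submitters' processing notes; the strand setting and annotation release are not given in the sources used here, so overlapping and antisense genes cannot be told apart. The 5 entries for reads given to no gene held 72.5 to 76.8% of counts and were left out. RefSeq windows are on another build, so the deposited binding regions and ChIP libraries were not used here.

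The model was fitted to counts of all 14 libraries by edgeR 4.0.16 under R 4.3.3 (quasi-likelihood, robust, TMM, default filter by group), with a term per group and one for library set. P-values are two-sided and adjusted by Benjamini-Hochberg over 16155 genes. A call is an adjusted p under 0.05. The SE is the log2 fold change divided by the root of its F. Within-set differences used a pseudocount of 0.5 CPM. In simulated counts for RA 48 h against 0 h (15071 genes), 100 genes were changed 1.5-fold and 100 were changed 2-fold. Of these, 12% and 74% were recovered. In the data 22.9% of genes were called lower and 25.8% higher, so the adjusted threshold is less strict there. The recovery rates therefore do not give the power of the real comparison. Differences between libraries numbered 1 and 2 correlated at 0.668 to 0.811 over 10 pairs of groups. Numbers 1 and 2 coincide with the sets there, so this cannot tell pairing by number from the set difference. DESeq2 1.42.0, other scalings, filters, a replicate block and left-out libraries were alternatives. Gene lengths were not at hand, so levels are not compared between genes.

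Named members were up to 6 called per direction and comparison plus a fixed list, and up to 4 called genes per other list plus a fixed list. Some members and list genes are not reported here by name, and 2 are left out of plots that label genes. Members and lists were chosen with earlier results of these data known.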

Additional observations from a re-analysis of the deposited data

Results flagged for a closer look

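Of 38 named genes tested at 0 h, 6 had 1 untreated library far from the other 3, by Dixon's test at the 95% level, which chance passes in about 1 of 20 groups. In 0 h replicate 3, Rps19 was at 288 CPM, Rpl3 at 38.4 CPM and Rpl11 at 79.5 CPM, each far above the others. In 0 h replicate 1, the only untreated library of set 1, Rpl37 was at 37.9 CPM, Rpl12 at 75.9 CPM and Rpl34 at 34.6 CPM, again above the others. All 3 of these genes were also called lower in set 2 than in set 1, so their flags cannot be told apart from the set difference. The rate of 1 in 20 holds only for libraries that do not differ by set. Without RA 24 h replicate 1 and 0 h replicate 3, 32 members were called lower at RA 24 h and 72 at RA 48 h.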

How the results depend on the processing

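No alternative run called a member higher against 0 h or DMSO, and the depth and 2 libraries a group limit small changes. The values below count members called. Without the set term there were 0 at RA 12 h, 6 at 24 h, 31 at 48 h, 0 for RA 48 h against RA 24 h, 0 and 3 against DMSO at 24 h and 48 h. With the replicate block there were 2 at 12 h and 11 for RA 48 h against RA 24 h, while the counts at 6 h (0), 24 h (25) and 48 h (61) moved by less than 1.5 times; comparisons with DMSO, whose libraries carry 1 number only, were not fitted with it. DESeq2 gave 17 at 12 h and 5 against DMSO at 24 h. Set 2 alone gave 0 at 12 h, 6 at 24 h, 40 at 48 h and 0 for RA 48 h against RA 24 h. With only the groups compared there were 3 at 12 h, 16 at 24 h and 1 for the change in the RA against DMSO difference. At least 1 CPM in 4 libraries gave 3 for RA 48 h against RA 24 h. The members' summed level at DMSO 24 h was 21455.4 CPM with RLE and 21468.3 CPM with TMM from other genes. The cause of these shifts was not tested.

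Leaving out 1 library at a time gave 0 to 1 members at 6 h, 0 to 11 at 12 h, 9 to 33 at 24 h, 41 to 69 at 48 h (72 without RA 24 h replicate 1 and 0 h replicate 3), 1 to 19 for RA 48 h against RA 24 h, 2 to 6 and 7 to 32 against DMSO at 24 h and 48 h. Some uncalled log2 fold changes at RA 48 h against 0 h turned sign. Rps27 was 0.54 with the replicate block, 0.053 with only the groups compared, 0.13 without both libraries named above, and -0.50 to 0.48 without 1 library. Rpl22l1 was -0.34 without the set term, -0.13 in set 2 alone and -0.15 to 0.69 without 1 library. Mycn was -0.33 without the set term, -0.024 with the replicate block, -0.32 in set 2 alone, -0.078 with only the groups compared and -0.50 to 0.58 without 1 library. Of the single-gene values, 1270 kept direction and side of the threshold, 159 lost the call, 2 gained it and 18 turned sign.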
